A study of Drosophila melanogaster with 3 samples.

Results

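Hairy is a repressor of the HES family, a group of basic helix-loop-helix proteins that bind DNA and recruit the corepressor Groucho. The genes described here are 10 cell cycle regulators, stg, E2f1, CycD, Cdk4, CycE, CycA, CycB, dap, dup and fzr, taken by name from 13945 protein-coding genes. A gene was called bound if a peak summit lay between 1 kb upstream of the gene and its end. Per the labels, chromatin immunoprecipitation and sequencing (ChIP-seq) with an anti-GFP antibody was carried out on a line of strain 15T-GFP that stably expresses Hairy with GFP at its C terminus. The material was whole larvae of both sexes, pooled, at the wandering stage of the third instar, in 3 biological replicates of 1 group. There is no second genotype, stage or treatment, so no change between conditions can be measured. A control library is named in the labels and was not analysed here, so binding of the fusion cannot be told apart from peaks that would form without it.

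Larvae at this stage hold very different cell cycles side by side. Imaginal discs and the brain divide by mitosis, while most larval tissues grow by endocycles, in which DNA is replicated without division. CycD with Cdk4 promotes growth and passage through G1. E2f1 activates genes of S phase, CycE with its kinase partner starts replication, and dup (the fly Cdt1) loads the replicative helicase onto origins. CycA and CycB act in G2 and mitosis, and stg (the fly Cdc25) removes the inhibitory phosphates from Cdk1 so that mitosis can begin. dap inhibits the CycE kinase, and fzr (the fly Cdh1) directs the anaphase-promoting complex to destroy mitotic cyclins, a step that endocycles need. A whole-larva library averages all these cells, so binding in a few of them may not have been called, and the cells in which a peak arose are unknown.

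The deposited peak lists comprise 30000 peaks for each replicate, 30000 for the replicates pooled, and a reproducible list of 10233 peaks that passed an irreproducible discovery rate filter. By its deposited name, the pooled list holds peaks and background as input to that filter. The replicate lists are as long, so their weaker entries may be background too. Peaks were ranked by the authors' signal value, a score with no stated scale. In the reproducible list it ran between 105 and 6471 with a median of 202, and rank 1 is the strongest peak. The strongest 10233 peaks of each replicate form its top list, so that lists of equal length can be compared. Read totals are not part of peak lists, so depth is unknown.

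A reproducible summit lay in the windows of 9 of the 10 regulators, against 36.7% of all coding genes. CycD was the exception. The 10 genes were chosen with earlier results of these data known. Their high share may come in part from that choice, and was not tested. All 10 windows were longer than the median coding window of 3.17 kb, with a median of 6.18 kb, and longer windows were bound more often, 41.6% of coding genes in the length group of stg, CycD, CycB and dap and 68.9% in that of E2f1 and CycE. Among the 5553 coding genes with windows at least as long as the shortest of the 10, 54.8% were bound. At least 1 own transcription start within 500 bp of a summit was found for 7 of the 10, against 29.8% of coding genes; stg, Cdk4 and CycD were the others. This count fell by over 1.5 times when summits were required in both top lists left after 1 replicate was set aside. It was then 3 without replicate 1, against 24.1% of coding genes, 4 without replicate 2, against 24.6%, and 4 without replicate 3, against 25.7%. In the replicates' top lists 8, 7 and 7 of the 10 genes were bound, a mean of 7.33 ± 0.58 (SD, n = 3), against a mean of 37.6% ± 0.71 of coding genes (SD, n = 3). The reproducible list was made from these same replicates, so their agreement is not independent of it.

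**Figure D1:**
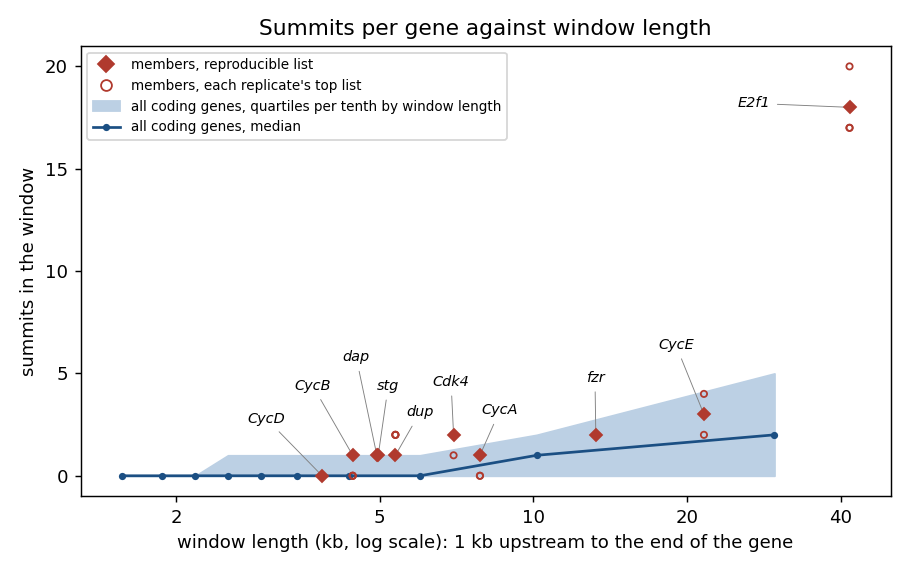
Number of summits in the window of each gene against window length in kb on a log axis; filled diamonds are the 10 regulators in the reproducible list, open circles each replicate's top list, and the line and band the median and quartiles of all coding genes in 10 equal groups by window length. E2f1 stands at 18 reproducible summits, and CycE at 3 is within the band, whose last group has a median of 2 and quartiles of 0 and 5.

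These 9 genes held 30 reproducible summits, 18 in E2f1 and 12 in the other 8. Introns held 22 of them, 5 lay upstream of the gene and 3 in a 5′ UTR. A peak of all 3 top lists covered 20 of the 30 summits (66.7%), against 7204 of all 10233 (70.4%). By their strongest summit the genes were of ordinary rank, with a median of 4366, against 3330.5 over the 5120 bound coding genes. For stg, dup and Cdk4 the nearest coding start to that summit belonged to another gene, as it did for 1507 of the 5120 bound genes (29.4%). The summit was therefore assigned to these 3 genes by window and not by nearest start.

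**Figure D2:**
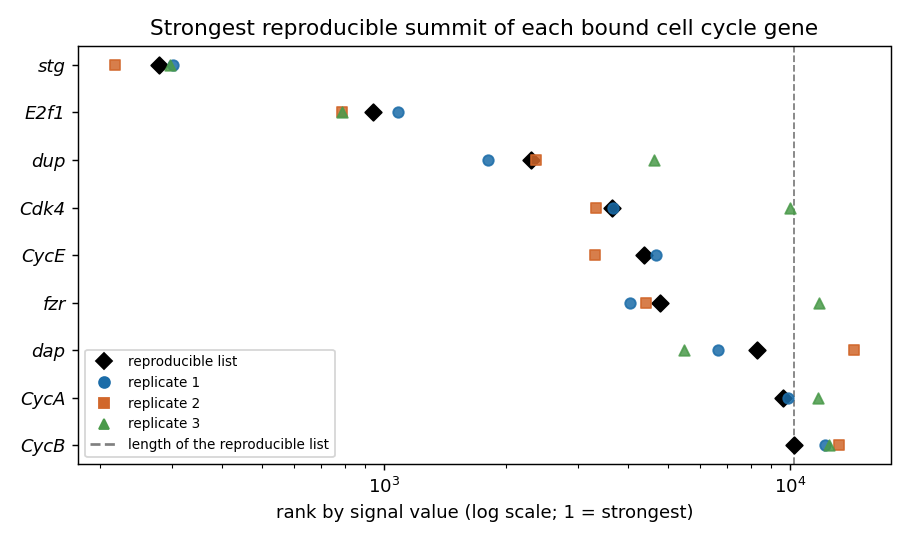
Rank of the strongest reproducible summit of each bound regulator in the reproducible list and of the overlapping peak in each of the 3 replicate lists, on a log axis on which lower ranks are stronger peaks, with a dashed line at rank 10233. The stg points lie between 218 and 302, and those of CycB between 10209 and 13216.

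The strongest summit of the set belonged to stg (FBgn0003525, 3R 29251826 to 29255800, minus strand, dm6). It lay at 29256326 in a peak of 29256121 to 29256510, had a signal value of 1172 and ranked 279 of 10233. Its rank was 302 in replicate 1, 218 in replicate 2 and 298 in replicate 3, a mean of 273 ± 47.4 (SD, n = 3). The ranks were thus close together, and 6.27% of bound coding genes had a strongest summit of this rank or higher. The summit was 526 bp upstream of the stg start and 159 bp from that of CG45544, a divergent gene whose 5′ end is 685 bp from that of stg. A second summit at 29256975, 1175 bp upstream of stg, lay just outside its window. Its signal value was 495 and it ranked 1467, with replicate ranks of 2248, 1007 and 1436. That summit was 490 bp from the CG45544 start, so both summits near stg were nearer to its neighbour.

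The stg summit coincided with CACGTG, the class B E-box, a sequence to which HES proteins bind. The match occupied 29256323 to 29256328 and was centred 0 bp from the summit of the pooled peak. Replicate summits were 0 bp away in replicate 1, 2 bp in replicate 2 and 51 bp in replicate 3, so the position is close in 2 of the 3. Within 3 bp of the centre, a limit set after this match was seen, CACGTG was found at 9 of 10233 summits (0.088%). Of the 9, 2 ranked at or above stg, stg included. Within 100 bp it was found at 7 of the 279 summits that ranked at or above stg, stg included, against 216 of all 10233 (2.11%). Over these 216 its median distance from the summit was 55.5 bp, so CACGTG was not centred on summits in general. The 201 bases around the summit, chr3R:29256226-29256426 on the plus strand of dm6 (RefSeq), are shown because they carry this E-box, in capitals, at their centre.
stg summit: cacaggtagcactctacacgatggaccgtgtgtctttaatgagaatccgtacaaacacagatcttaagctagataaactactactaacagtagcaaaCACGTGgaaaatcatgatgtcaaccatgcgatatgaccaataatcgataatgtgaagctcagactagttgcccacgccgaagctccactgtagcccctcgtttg

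E2f1 (FBgn0011766, 3R 21620304 to 21660871, minus strand) held 18 reproducible summits, more than the other 9 regulators together. The top lists placed 17, 20 and 17 summits in its window of 41.57 kb, a mean of 18 ± 1.73 (SD, n = 3). As many or more were found in 23 of 13945 coding genes (0.165%), E2f1 included. Of the 311 coding genes with windows between 33.3 and 52.0 kb, 68.2% were bound, and the median was 2 summits with quartiles of 0 and 5. Of these, 3 genes (0.965%), E2f1 included, had as many summits as E2f1 or more. Per kb it had 0.433 summits, against a median of 0.29 over bound genes, whose upper quartile was also 0.433. By number of summits E2f1 was thus far out among genes of its length. By density it was at the upper quartile of bound genes of all lengths, of which 60.1% held 1 summit. Density was not compared among genes of like length.

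The summits were mostly intronic, 17 of 18, with 1 in a 5′ UTR. They spread over 33399 bp, between 21626690 and 21660089, with a median gap of 1525 bp. The gene has 5 starts, at 0, 439, 22377, 27798 and 28178 bp from its 5′ end, and 16 of the 18 summits lay over 2 kb from any of them. The other 2 lay 343 bp downstream of the start at 21660432 and 176 bp upstream of that at 21633073, which is inside the antisense transcript asRNA:CR46055. Going down the gene, 12 summits fell between the second and the third start, 2 between the third and the fourth, and 4 after the last. Summits less than 2 kb apart formed 7 runs, of which the largest held 6 summits between 7.8 and 12.3 kb from the 5′ end. The microRNA genes mir-11 and mir-998 also lie within E2f1.

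**Figure D3:**
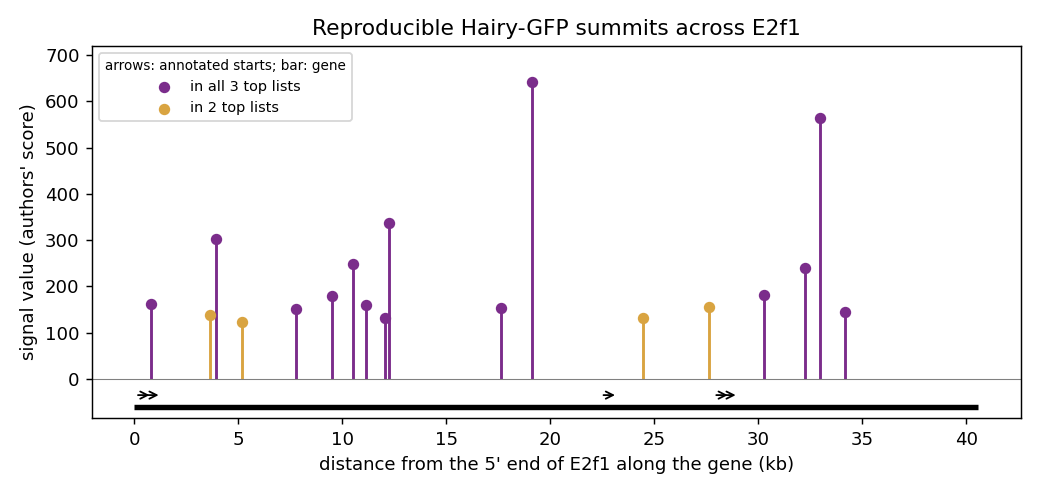
Signal value (the authors' score) of the 18 reproducible E2f1 summits against distance from the gene's 5′ end in kb, with arrows at the annotated starts, a bar for the gene, and colour for summits covered in all 3 or in 2 top lists. The highest value, 641, stands 19.1 kb into the gene, and 565, the next, is in the last run of 4 summits between 30.3 and 34.2 kb.

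Signal was uneven along the gene. The summit at 21641745, in a peak of 21641504 to 21641891, had a signal value of 641 and ranked 939, with ranks of 1082, 788 and 787 in the replicates, a mean of 886 ± 170 (SD, n = 3). That at 21627924, in a peak of 21627773 to 21628084, had a signal value of 565 and ranked 1175, with 1199, 1227 and 1200 in the replicates, a mean of 1209 ± 15.9 (SD, n = 3). The third, at 21648612, had 337 and ranked 2577, with 2447, 3192 and 2743 in the replicates, a mean of 2794 ± 375 (SD, n = 3). These 3 were found at similar ranks in every replicate. The remaining 15 had signal values between 122 and 303, and 6 of the 18 were above the list's median of 202. Of the 18 summits, 14 were covered in all 3 top lists, against 6 of the 12 summits in the other regulators. A pair of summits 205 bp apart, at 21648612 and 21648817, fell in the same replicate peaks and are not separate evidence.

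None of the 18 windows of 201 bases around these summits held CACGTG or the class C site CACGCG. The N-box CACNAG, another HES recognition sequence, was found at 5 of them and ACACTG at 4, and the class A E-box CAGCTG at 1. Over all 10233 summits, CACGTG was at 2.11%, CACGCG at 6.25%, the N-box at 20.3%, ACACTG at 16.6% and CAGCTG at 9.47%. With only 18 windows, no difference from these shares was tested. The windows of the 3 strongest summits are shown, since they carry the highest signal over the gene, with N-box and ACACTG matches on either strand in capitals. Plus-strand sequences are from RefSeq dm6, at chr3R:21641645-21641845, chr3R:21627824-21628024 and chr3R:21648512-21648712. The strongest has no match to any of the 8 motifs searched and a GC content of 27.9%.
E2f1 summit 1: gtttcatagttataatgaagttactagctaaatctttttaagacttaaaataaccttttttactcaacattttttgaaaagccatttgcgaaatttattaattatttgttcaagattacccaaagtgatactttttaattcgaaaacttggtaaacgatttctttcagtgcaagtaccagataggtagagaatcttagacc
E2f1 summit 2: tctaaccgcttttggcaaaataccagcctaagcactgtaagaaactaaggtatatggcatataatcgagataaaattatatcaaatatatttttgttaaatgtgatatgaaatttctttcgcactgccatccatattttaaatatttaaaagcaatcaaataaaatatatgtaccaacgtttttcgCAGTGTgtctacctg
E2f1 summit 3: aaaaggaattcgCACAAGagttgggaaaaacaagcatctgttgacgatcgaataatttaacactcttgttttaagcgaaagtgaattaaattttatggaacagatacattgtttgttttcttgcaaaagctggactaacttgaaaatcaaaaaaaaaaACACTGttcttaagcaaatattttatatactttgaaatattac

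CycE (FBgn0010382, 2L 15727581 to 15748150, minus strand) had 3 summits in a window of 21.57 kb. That count was reached by 188 of 492 coding genes of like length (38.2%), CycE included. The strongest, at 15747032, had a signal value of 230 and ranked 4366, with ranks of 4690 in replicate 1 and 3308 in replicate 2 and no covering peak in replicate 3. A summit 249 bp away, at 15747281, had a signal value of 202 and ranked 5113, with 4956, 8556 and 3479 in the replicates, a mean of 5664 ± 2611 (SD, n = 3). In replicate 3 the single peak of this pair was therefore at the weaker summit. Both are intronic, 422 and 671 bp upstream of an internal start. The remaining summit, at 15743819, had 212, ranked 4800 and lay 2791 bp downstream of that start, with 5027, 4242 and 8114 in the replicates, a mean of 5794 ± 2047 (SD, n = 3). The window of the strongest summit held CAGCTG at 2 places, an E-box that activator helix-loop-helix proteins commonly bind, and no class B, class C or N-box match.

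CycA (FBgn0000404, 3L 11826719 to 11833578, minus strand) had a single weak summit, at 11833660, 82 bp upstream of its start. Its signal value was 112 and its rank 9617, with ranks of 9917 in replicate 1 and 11713 in replicate 3, and no covering peak in replicate 2. Only the top list of replicate 1 included it. The window held TATCGATA, the DNA replication-related element (DRE), a promoter element of many replication and proliferation genes. The CycE window, chr2L:15746932-15747132, and the part of the CycA window before the transcript, chr3L:11833579-11833760 in 182 bases, are shown on the plus strand (RefSeq dm6) for these promoter-near matches, which are in capitals together with an ACACTG match in CycA.
CycE summit 1: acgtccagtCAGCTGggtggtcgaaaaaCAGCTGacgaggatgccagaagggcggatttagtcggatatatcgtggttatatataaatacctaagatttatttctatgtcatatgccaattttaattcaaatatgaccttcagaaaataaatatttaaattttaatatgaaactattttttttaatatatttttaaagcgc
CycA summit: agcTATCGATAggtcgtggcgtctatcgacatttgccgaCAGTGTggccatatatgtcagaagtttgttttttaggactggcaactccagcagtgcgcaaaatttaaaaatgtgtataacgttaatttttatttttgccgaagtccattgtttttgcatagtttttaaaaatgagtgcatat

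A peak that ranked 343 lay near CycB (FBgn0000405, 2R 22803521 to 22806948, minus strand), but on the far side of the gene. Its summit at 22802974 was 547 bp past the gene's end and so outside the window, had a signal value of 1077 and ranked 337, 295 and 363 in the replicates, a mean of 332 ± 34.3 (SD, n = 3). The nearest coding start was nevertheless that of CycB, 3329 bp away. Inside the window CycB had the weakest summit of the set, at 22807020, 72 bp upstream of the start, where the signal value was 105 and the peak ranked 10209 of 10233. Its ranks were 12171, 13216 and 12445 in the replicates, a mean of 12611 ± 542 (SD, n = 3), and no top list held it. The window of the neighbouring gene stl holds the same summit. GGTCACAC, the core promoter element Ohler 1, was found near it.

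In the G1 pair, Cdk4 was bound and its cyclin was not. Cdk4 (FBgn0016131, 2R 16579470 to 16585448, plus strand) had summits at 16584042, in an intron, and at 16578874, 596 bp upstream. The intronic one had a signal value of 264 and ranked 3642, with 3677, 3329 and 9976 in the replicates, a mean of 5661 ± 3741 (SD, n = 3). The upstream one had 184 and ranked 5739, with 5543, 5075 and 15195 in the replicates, a mean of 8604 ± 5712 (SD, n = 3). In both cases replicate 3 stood far below replicates 1 and 2. The intronic summit was 3209 bp from the nearest Cdk4 start and 2087 bp from that of RpLP2, a ribosomal protein gene. Neither window held any of the 8 motifs.

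CycD (FBgn0010315, X 15906822 to 15909676, minus strand) had no reproducible and no pooled summit in its window. The nearest reproducible summit was 34244 bp away and the nearest pooled one 16360 bp. Weak replicate peaks did lie at its promoter, at 15909923 in replicate 1, 247 bp upstream, with rank 14100 of 30000, and at 15909750 and 15910105 in replicate 2, 74 and 429 bp upstream, with ranks 15794 and 23919. Replicate 3 had none. Entries were thus listed in 2 of 3 replicates, outside their top lists, and may be background.

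dap (FBgn0010316, 2R 9712321 to 9716256, plus strand), the inhibitor of the CycE kinase, had a single summit at 9712368, in its 5′ UTR and 47 bp downstream of the start. Its signal value was 130 and its rank 8318, with ranks of 6650, 14345 and 5488 in the replicates, a mean of 8828 ± 4813 (SD, n = 3). Replicate 2 placed it outside its top list. An N-box and ACACTG were within 100 bp.

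dup (FBgn0000996, 2R 15376619 to 15380988, minus strand) was bound at a promoter it shares with SRPK, a kinase gene whose 5′ end is 264 bp from that of dup. The summit at 15380699 had a signal value of 365 and ranked 2297. With 1 summit per gene, the strongest, only stg and E2f1 ranked higher. Its ranks were 1805, 2366 and 4639 in the replicates, a mean of 2937 ± 1501 (SD, n = 3), inside all 3 top lists. Each top list had 2 summits in the dup window, of which this is the reproducible one. It was 25 bp from the SRPK start, 85 bp upstream of the nearer dup start and within the 5′ UTR of the longer dup transcript. Its window held a class C site, a class A E-box, an E2F site and ACACTG, more motif types than any other of the 30 windows. It was the only one of the 30 with a class C site or an E2F site, the sequence through which E2f1 is known to act on S phase genes.

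fzr (FBgn0262699, X 4667290 to 4679537, minus strand) had a summit at 4679977, 440 bp upstream of the gene, and an intronic one at 4677662, 129 bp upstream of its second start. The upstream summit had a signal value of 212 and ranked 4798, with 4028, 4413 and 11779 in the replicates, a mean of 6740 ± 4368 (SD, n = 3). The intronic one had 149 and ranked 7208, with 7355, 8417 and 8518 in the replicates, a mean of 8097 ± 644 (SD, n = 3). The intronic summit is the weaker of the pair in the pooled data and the more even across replicates. As at CycB, a much stronger summit lay past the end of the gene. It was at 4666991, 299 bp beyond fzr and 291 bp from the CG3009 start, had a signal value of 1241 and ranked 222, 281 and 248 in the replicates, a mean of 250 ± 29.6 (SD, n = 3).

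**Figure D4:**
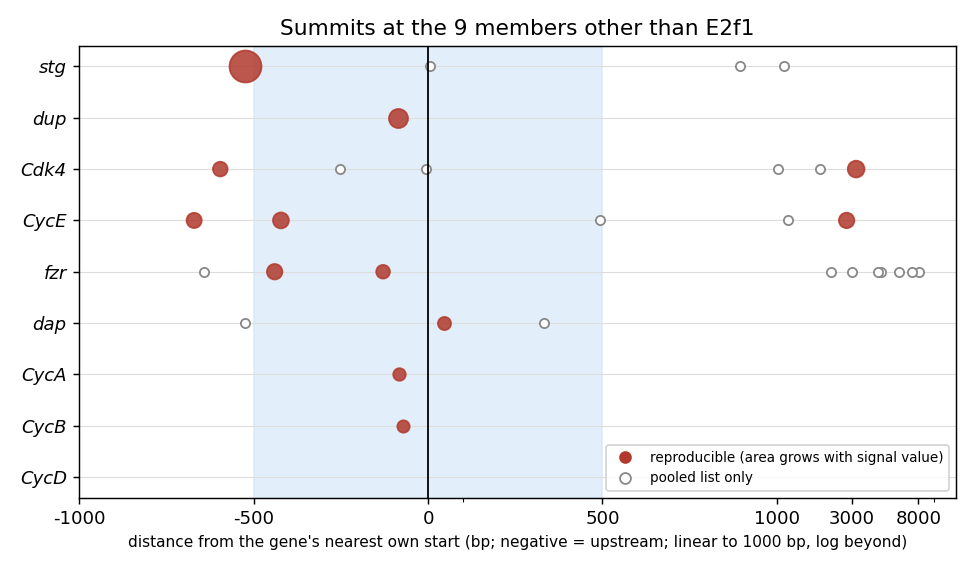
Distance in bp, upstream negative, from the nearest own start to each summit of the 9 regulators other than E2f1; filled points are reproducible summits with area growing with signal value, open points are in the pooled list only, and the shading spans 500 bp on each side of the start (linear to 1000 bp, log beyond). The stg point is the biggest and lies 526 bp upstream, summits of dup, CycA, CycB and dap lie within 100 bp of a start, and CycD has none.

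The pooled list, which holds peaks and background, added 41 weaker summits that did not pass the reproducibility filter. Of these, 22 were in E2f1, 8 in fzr, 4 in Cdk4, 3 in stg and 2 each in CycE and dap. They cannot be told apart from background here. The strongest of them, in E2f1 at 21633452, had a signal value of 103.5, just under the lowest reproducible value of 105.2, and the CycB summit at 105.4 was just over it. Without any length cut, E2f1 had 39, 39 and 32 summits in the full replicate lists. Counts over all coding genes in the pooled and full replicate lists are not given here. Replicate summits lay a median of 15 bp from the reproducible ones over 88 matches in the regulators, against 18 bp over all summits. Within 20000 bp on each side of its 5′ end, E2f1 had 13 reproducible summits and CycD 0, against a median of 4 with quartiles of 1 and 6 over coding genes.

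Over the 30 summits, motif shares were close to those of the whole list. A class B, class C or N-box match, the 3 HES sequences, was found at 8 of 30 summits (26.7%), against 26.4% of all 10233. An N-box was at 6 (20%, against 20.3%) and a class A E-box at 3 (10%, against 9.47%). CACGTG, at stg, was at 1 (3.33%, against 2.11%), as were the class C site (against 6.25%), the DRE (against 3.00%), Ohler 1 (against 2.12%) and the E2F site (against 3.65%). ACACTG was at 7 (23.3%, against 16.6%). All 8 motifs were read on both strands, and the E2F site was any of TTTCCCGC, TTTGGCGC, TTTCGCGC and TTTGCCGC. Ohler 1 ends in the bases with which ACACTG begins, so these 2 can overlap.

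Further cell cycle genes were taken as a list of 66 in 8 classes, also chosen with earlier results of these data known. Of these, 30 were bound (45.5%), against 36.7% of coding genes, and 27 had a bound promoter (40.9%), against 29.8%. Their median window was 3.79 kb, longer than the coding median of 3.17 kb. The top lists bound 35, 33 and 31 of the 66, a mean of 33 ± 2 (SD, n = 3). Of all coding genes, the top lists bound a mean of 37.6% ± 0.71 (SD, n = 3). Among E2F and RB proteins, the class of E2f1 by function, 3 of 4 genes were bound (75%, against 36.7% of coding genes). E2f2 was not bound. Dp, the dimer partner of E2f1, had 6 summits, the strongest with a signal value of 1172, rank 280 and replicate ranks of 308, 249 and 217. Rbf, the RB protein that restrains E2f1, had its summit at rank 8456, with replicate ranks of 8039, 10768 and 10669. Only the top list of replicate 1 had a summit in its window. Rbf2, the RB protein that pairs with E2f2, had its summit at rank 1214, 31 bp from the CG32856 start and 64 bp from its own.

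The genes grouped with stg, as Cdk1 phosphatase and inhibitory kinases, were twe, Wee1, Myt1 and trbl. Of these 4, 1 was bound (25%, against 36.7% of coding genes). The bound gene was trbl, whose product promotes the destruction of the stg phosphatase, with 4 summits and a strongest rank of 938. Origin licensing and replication genes, the class of dup, were bound in 9 of 20 cases (45%, against 36.7%). The strongest were chif, the activating subunit of the Cdc7 kinase, at rank 77 with replicate ranks of 89, 93 and 84, and dpa, a helicase subunit, at rank 733. Cdc7 itself followed at rank 1088, with ranks of 1163 in replicate 1 and 1112 in replicate 2 and no covering peak in replicate 3. Other kinases and cyclins were bound in 2 of 7 cases (28.6%, against 36.7%), CycH at rank 5417 and Cdk1 at rank 5698. Genes of the anaphase-promoting complex and its regulators, the class of fzr, were bound in 3 of 11 cases (27.3%, against 36.7% of coding genes), led by Cdc16 at rank 1184, with lmgA at 5975 and Cdc27 at 8493.

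SCF ubiquitin ligase genes were bound in 3 of 5 cases (60%, against 36.7% of coding genes). All 3 strongest summits lay nearest to another gene's start, as did 29.4% over all bound coding genes. SkpA was at rank 229, 205 bp from the Hmt4-20 start and 971 bp from its own. Cul1 was at 6690, 177 bp from the CG12159 start and 201 bp from its own. For ago, which targets CycE for destruction, the summit at 7287 was 57 bp from the CG1265 start and 413 bp from its own. By the 500 bp rule Cul1 and ago had bound promoters, and SkpA did not. Mitotic kinase and spindle checkpoint genes were bound in 5 of 10 cases (50%, against 36.7%), led by aurA at 1357. The Bub3 summit, at 1767, was 113 bp from the Cap-D2 start and 117 bp from its own, and Incenp was at 3213. DNA damage checkpoint genes were bound in 4 of 5 cases (80%, against 36.7%). The strongest were grp at 1318, 626 bp from the CG31807 start and 756 bp from its own, and p53 at 4606. The tefu summit, at 4702, was 35 bp from the Hsc70-4 start and 486 bp from its own. The classes are small and were not matched to coding genes by window length, and no difference between them was tested.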

How the data were processed

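Transcription factor ChIP-seq was measured in 3 biological replicates of whole larvae, which form 1 group, per the labels. The authors deposited peak lists on dm6 and dm3, 1 of each build per replicate, plus a pooled and a reproducible list. Per the notes deposited with the lists, they derive from the replicate alignments and 1 further file, and the reproducible list derives from the 3 replicate lists and the pooled list. For the aligner, the peak caller and the threshold of the irreproducible discovery rate, each was not given in the sources used here. The deposited signal value is a score, which served only to order the peaks of each list. Replicate peaks were called per sample. The dm3 lists were not used here, because the annotation is on dm6 and coordinates were not converted.

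Genes and starts came from Ensembl release 115 (13945 coding genes, 19607 starts) and sequences from the RefSeq dm6 genome. Coordinates are 1-based. A summit is the peak start plus its deposited offset. Replicate ranks are those of the strongest peak that contains the summit. Motifs were searched within 100 bp of each summit. Counts were made with Python 3.11.15, numpy 2.4.6 and pandas 2.3.3, after the same functions were tested on simulated lists. No test was run, since there is 1 group, and values are set beside those over all coding genes or summits. The genes, the wider list (2 symbols updated) and the motifs were chosen with earlier results of these data known. All 10 genes are named with each summit or its range, and in each wider class the 3 genes with the strongest peak by pooled signal value. Alternatives tried were the pooled list, peaks above the median signal value, the overlap rule, other windows and flanks, and each replicate left out.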

Additional observations from a re-analysis of the deposited data

How the results depend on the processing

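Of 119 counts and ranks recomputed under an alternative, 24 were marked as moved, 6 of them values over the whole set and 18 counts of single motifs. No mean rank was so marked, but some shifted widely. Without replicate 3 the mean rank of the strongest peak went from 5661 to 3503 for Cdk4 and from 6740 to 4220.5 for fzr. The DRE and Ohler 1 matches fell to 0 summits with any replicate left out. The number of the 10 regulators bound stayed between 6 and 9, with 7 when summits were assigned to the nearest coding start and 6 when only peaks above the median signal value were kept. In that stronger part of the list the regulators held 13 summits instead of 30, and 18 of the 66 wider genes were bound instead of 30. Shares of all coding genes under these settings are not given here. Whether the regulators fell more than genes in general was not tested. With each replicate left out in turn, requiring the remaining top lists, 3 to 4 regulators had a bound promoter instead of 7. Coding genes then had 24.1% to 25.7% of promoters bound instead of 29.8%. Motif matches narrowed to 7 of 30 summits within 50 bp, against 15 within 100 bp. Under the 8 settings compared, E2f1, Cdk4, CycE and fzr were bound in 8, stg and dup in 7, dap in 4, CycA and CycB in 3 and CycD in 0. No paired analysis was possible because there is 1 group. Depth is unknown, so weak binding at CycD, CycA or CycB cannot be bounded.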
